A study of Drosophila melanogaster with 24 samples.

Results

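Transcript levels were compared between female flies of 2 GAL4 driver lines that carried no UAS transgene. The comparison covers 6 of the 24 arrays in the series, chosen by their titles as the female genetic controls of the Dhr96 over-expression and Dhr96 knockdown experiments. One group had the genotype w;Act5C-GAL4/+ and the other w;arm-GAL4/+, with 3 arrays each, and an array held RNA of whole adult Drosophila melanogaster aged 0 to 3 days. Both groups share the w background, the rich yeast and sugar diet and the rearing conditions, and both carry a GAL4 gene. The replicate number marks 1 of 3 preparations of that diet, so arrays were compared within each diet batch. The other groups used below are the males of the same genotypes, females with a UAS transgene for Dhr96 over-expression (line 35) under Act5C-GAL4, and females with a transgene labelled Dhr96 knockdown (line 3) under arm-GAL4.

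GAL4 is a yeast transcription factor that flies do not carry naturally and that switches on transgenes placed behind UAS sequences. In Act5C-GAL4 it is under the promoter of Act5C, a cytoplasmic actin gene that is active in nearly all cells. In arm-GAL4 it is under the promoter of armadillo, the fly beta-catenin gene, which is also active in most tissues and is known as a milder driver. A driver line also brings its insertion site and linked chromosome with it. Each driver is represented here by 1 line, so effects of the promoter, the GAL4 dose, the insertion site and the rest of the genome cannot be told apart. The labels do not say which chromosome carries either insertion or what the homologue marked + came from, and they do not give the number of flies in an RNA sample. Replicates are described as biological, without saying what was separate beyond the diet, so a p-value here weighs a difference against the spread between such samples.

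The arrays were alike in scale. Median intensity lay between 54.5 and 60 arbitrary units, and log2 intensities correlated at 0.983 to 0.991 among Act5C-GAL4 arrays, 0.976 to 0.987 among arm-GAL4 arrays and 0.975 to 0.991 between the groups. Markers placed all 6 samples as females. The yolk protein gene Yp1 averaged 13.33 ± 0.25 with Act5C-GAL4 and 13.04 ± 0.52 with arm-GAL4 on the log2 scale (SD, n = 3), against 4.81 and 4.67 in the matching males. The seminal fluid gene Acp26Aa was at 3.43 and 3.57 in females, under the lowest lower quartile of any array (4.35), and the sperm-tail gene Mst84Da was at 4.88 and 4.83. Hr96, which encodes the nuclear receptor DHR96 and is the target of the transgenes, was not called between the 2 controls. Its log2 values were 7.53, 8.07 and 7.66 with Act5C-GAL4 and 7.85, 7.99 and 7.58 with arm-GAL4, a difference of -0.06 (SE 0.32, adjusted p = 0.999). Neither Act5C, arm nor w was named for a single-gene probe set in the annotation used here, so the genes whose promoters drive GAL4 were not read.

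Few differences between the driver lines passed the test. With 3 arrays per group, transcripts that did not pass are not shown to be equal. Of 18769 probe sets (groups of short probes that read 1 transcript), 38 passed an adjusted p of 0.05, 19 higher and 19 lower with Act5C-GAL4. That is 0.202% of those tested, and 0.101% in each direction. The test was limma with diet batch as a block and Benjamini-Hochberg adjustment, with the spread of each probe set estimated over all 24 arrays. The 38 named 28 genes, while 3 probe sets listed several genes and 7 were unnamed here. At least a 2-fold difference was seen in 23 of them. In all 38 the difference had the same sign in the 3 diet batches and the 2 groups did not overlap, against 7.34% of all probe sets with groups that did not overlap. The 38 were chosen by a test of the same arrays, so this is no separate support for the calls. The median difference over all probe sets was 0 and the median absolute difference 0.1 on the log2 scale. A fit restricted to the 6 compared arrays, which has fewer arrays to estimate the spread from, called 12 of the 38, among them CG1304, Ser6, mthl8, CG42857, Lime, Cyp4p2, Eip63E and Drep1. The rest of the 12 had no single gene name, so the other named genes lost their calls there. A fit to the 12 female arrays called 22, of which 20 were among the 38. Not every one of the 38 was followed by name through the fits. Of those followed, it did not call Ser6, lola, TBPH, CG31380, CG31676, Drep1, Nop60B, Rbm13, Dus2, Ptp10D or 1633998_s_at. In whole flies, a difference in the number of cells that express a gene and a difference in its RNA per cell cannot be told apart.

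**Figure D1:**
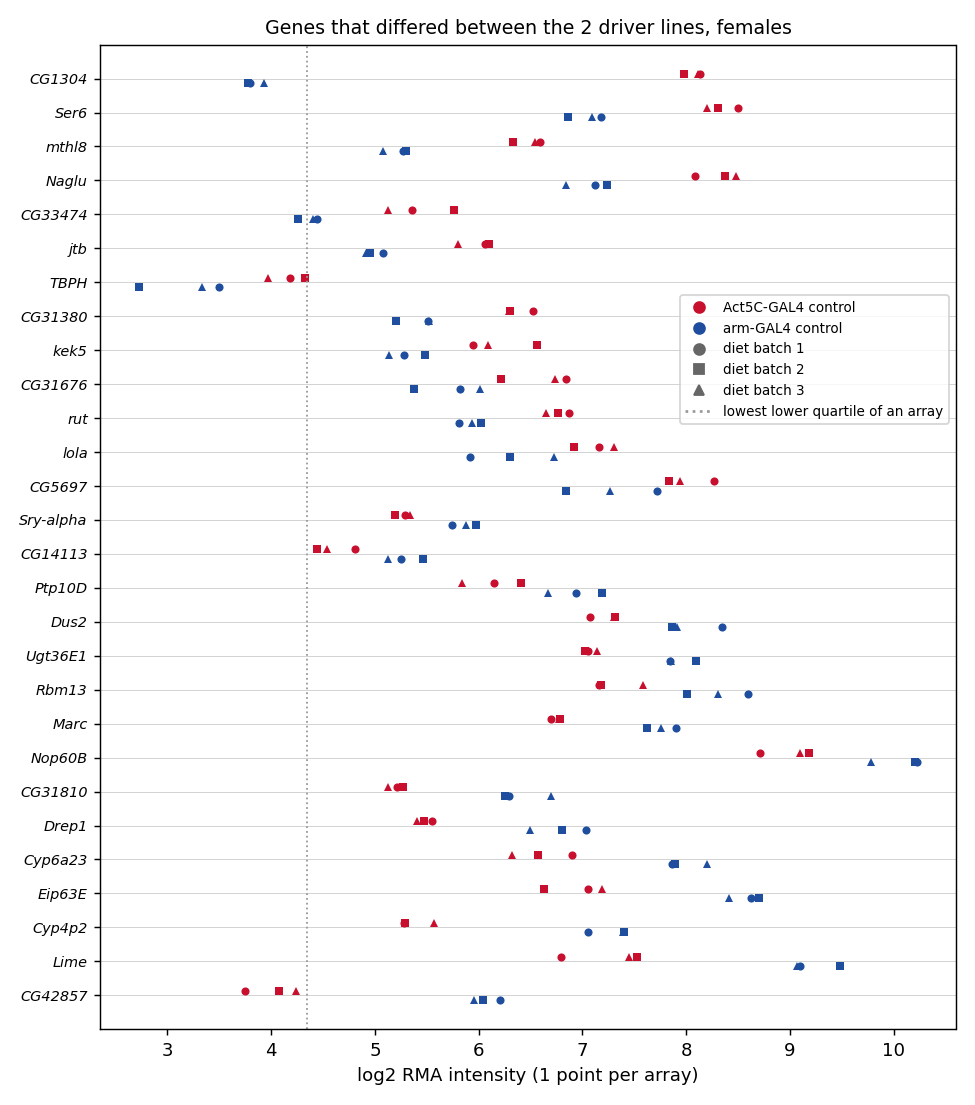
Log2 RMA intensity of the 28 genes that differed between the driver lines, 1 point per female array (red, Act5C-GAL4 control; blue, arm-GAL4 control; symbols mark the diet batch), ordered from the largest rise to the largest fall. The 2 colours do not overlap for any of these genes, and the dotted line at 4.35 marks the lowest lower quartile of an array. Below it lie the arm-GAL4 values of CG1304, the Act5C-GAL4 values of CG42857 and all values of TBPH. The arm-GAL4 value of CG33474 in diet batch 2 (4.26) is below it too, and those in batches 1 and 3 (4.44 and 4.40) are close above it.

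The largest rise with Act5C-GAL4 was in CG1304, a predicted serine protease gene on the X chromosome. Its log2 values were 8.13, 7.98 and 8.11 with Act5C-GAL4 and 3.80, 3.78 and 3.93 with arm-GAL4. The SD was 0.08 in each group, while the groups were 4.24 apart (SE 0.25, 18.9-fold, adjusted p = 3.61e-09). All arm-GAL4 values were under 4.35, at the dim end of the scale, where little of a signal may be specific. The serine protease gene next to it in the Release 6 gene table, Ser6, was also higher, with 8.5, 8.31 and 8.20 against 7.18, 6.86 and 7.09. This 2.45-fold difference (log2 1.29, SE 0.25, adjusted p = 0.0285) lost its call when any 1 of the 6 arrays was left out (adjusted p from 0.072 to 0.184), although the 6 arrays fitted alone gave 0.0431. CG1304 kept its call in each of those fits. Whether probes of these 2 related genes share sequence was not tested.

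The next largest rises among named genes were in mthl8 and Naglu, with a smaller rise in kek5. The probe set of mthl8, a member of the methuselah family of G protein-coupled receptors, read 6.59, 6.33 and 6.54 with Act5C-GAL4 and 5.27, 5.30 and 5.08 with arm-GAL4, a 2.41-fold rise (log2 1.27, SE 0.16, adjusted p = 0.000255). Its second probe set was also higher, by 0.51, without passing the test (adjusted p = 0.496). Naglu, which encodes the lysosomal enzyme alpha-N-acetylglucosaminidase, read 8.08, 8.37 and 8.48 against 7.12, 7.24 and 6.84, and rose 2.36-fold (log2 1.24, SE 0.15, adjusted p = 0.000205). The difference in Naglu ranged from 0.95 in the first diet batch to 1.64 in the third, against an SD of 0.21 within each group. kek5, a kekkon-family membrane protein gene with leucine-rich repeats, read 5.95, 6.56 and 6.09 against 5.28, 5.48 and 5.14 (log2 0.89, SE 0.14, adjusted p = 0.00359). The other kek5 probe set differed by 0.08 (adjusted p = 0.999) at a lower intensity.

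rut, lola and TBPH rose by under 1 on the log2 scale, and none of these calls held in every alternative fit. rut, the calcium and calmodulin dependent adenylyl cyclase first known from learning mutants, read 6.87, 6.76 and 6.65 with Act5C-GAL4 and 5.81, 6.02 and 5.94 with arm-GAL4. Its rise of 0.83 (SE 0.17, adjusted p = 0.0471) was not called without any 1 of the 6 arrays (adjusted p from 0.0876 to 0.366) or without the batch block (0.116), and it was also lost after a median shift (0.0547), after quantile normalization of all arrays together (0.192) or by sex (0.0613) and with 1 probe set per gene (0.0579). One of the 15 probe sets of lola, a BTB zinc-finger transcription factor gene with many isoforms, read 7.16, 6.92 and 7.30 against 5.92, 6.30 and 6.73 (log2 0.81, SE 0.16, adjusted p = 0.0452). The 14 other lola probe sets differed by -0.27 to 0.58 and none was called. The lola call was lost without the block (adjusted p = 0.197), after quantile normalization over all arrays (0.0937) and without 5 of the 6 arrays, all but arm-GAL4 replicate 3 (adjusted p from 0.0544 to 0.323). TBPH, the fly TDP-43 gene, has one probe set that rose by 0.98 (SE 0.18, adjusted p = 0.018), from 3.50, 2.73 and 3.33 to 4.18, 4.33 and 3.97. Both groups lay below the lowest lower quartile, the call was lost without Act5C-GAL4 replicate 2 or 3 or arm-GAL4 replicate 2 (adjusted p from 0.0504 to 0.182), and the brighter TBPH probe set differed by 0.06.

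The remaining named rises were of about 2-fold. CG33474 rose by 1.05 (SE 0.16, adjusted p = 0.00218), from 4.44, 4.26 and 4.40 with arm-GAL4 to 5.36, 5.76 and 5.13 with Act5C-GAL4. Its arm-GAL4 values were at the dim end of the scale, near the lowest lower quartile of any array (4.35). jtb rose by 1.00 (SE 0.13, adjusted p = 0.000205), from 5.08, 4.95 and 4.91 to 6.06, 6.10 and 5.80. The groups of these 2 genes were separated by at least as much as either group was wide. CG31380 rose by 0.96 (SE 0.15, adjusted p = 0.00325) and CG31676 by 0.86 (SE 0.15, adjusted p = 0.0109). Of these 4 genes, CG31676 alone lost its call with an array left out, which happened without Act5C-GAL4 replicate 1 or 3 or arm-GAL4 replicate 2 (adjusted p from 0.0862 to 0.12). All 4 lost their calls on the 6 compared arrays alone, with the batch block (adjusted p from 0.104 to 0.189). CG5697, named after its values were seen, completed the genes that rose, with a log2 difference of 0.74 (adjusted p = 0.0369). Among probe sets without a single gene name, 1640377_s_at read 8.63, 9.05 and 8.60 against 5.48, 4.80 and 5.23, a 12.1-fold rise (log2 3.59, SE 0.20, adjusted p = 2.38e-09). It was followed by 1624819_s_at, at 5.69-fold (log2 2.51, SE 0.24, adjusted p = 5.6e-06), and by 1630555_at, named after its values were seen and listed for several genes, at 3.69-fold (log2 1.88, SE 0.23, adjusted p = 0.000205).

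Falls with Act5C-GAL4 were led by CG42857 and Lime. CG42857 read 3.75, 4.08 and 4.24 with Act5C-GAL4 and 6.21, 6.04 and 5.96 with arm-GAL4, 4.14-fold lower (log2 -2.05, SE 0.25, adjusted p = 0.000205). All of its Act5C-GAL4 values were under the lowest lower quartile. Lime, a zinc-finger transcription factor gene known for linking immune activation with metabolism, read 6.79, 7.53 and 7.45 against 9.10, 9.48 and 9.07, 3.89-fold lower (log2 -1.96, SE 0.24, adjusted p = 0.000205). The 2 groups of Lime arrays were far apart relative to the spread within each. Eip63E, a cyclin-dependent kinase gene, read 7.05, 6.63 and 7.19 against 8.62, 8.70 and 8.41, 3.08-fold lower (log2 -1.62, SE 0.13, adjusted p = 5.78e-07). Drep1, which encodes a protein of the DNA fragmentation factor family, read 5.55, 5.47 and 5.41 against 7.03, 6.80 and 6.49, 2.46-fold lower (log2 -1.30, SE 0.21, adjusted p = 0.00421).

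Detoxification enzymes contributed 3 of the falls. Cyp4p2, a cytochrome P450 gene, read 5.28, 5.29 and 5.57 with Act5C-GAL4 and 7.05, 7.40 and 7.39 with arm-GAL4, 3.74-fold lower (log2 -1.90, SE 0.15, adjusted p = 2.48e-07). Its relatives of the same subfamily were not called, with differences of -0.41 in the neighbouring Cyp4p1 and -0.03 in Cyp4p3 (adjusted p = 0.999 for both). Cyp6a23 read 6.90, 6.57 and 6.32 against 7.86, 7.89 and 8.20, 2.61-fold lower (log2 -1.39, SE 0.17, adjusted p = 0.000205). The neighbouring Cyp6a17 was higher in all 3 batches, by 0.86, without passing the test (adjusted p = 0.371). The 81 measured P450 genes had a median difference of 0.02, and these 2 were the only members called, 0 higher and 2 lower. Over all 11982 genes, 24 were called (0.2%). An unadjusted p under 0.05 was found in 14 of the 81 P450 genes (17.3%, 6 higher and 8 lower), against 4.98% of all genes. Ugt36E1, a UDP-glycosyltransferase gene, read 7.05, 7.02 and 7.14 against 7.84, 8.09 and 7.85 (log2 -0.86, SE 0.15, adjusted p = 0.0109), the only 1 called of 35 in its family, which had a median of 0.06. In that family 5 genes had an unadjusted p under 0.05 (14.3%), 4 higher and 1 lower. The Ugt36E1 call was lost without Act5C-GAL4 replicate 2 or 3 or arm-GAL4 replicate 1 or 2 (adjusted p from 0.0537 to 0.103).

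Nop60B, Rbm13 and Dus2, each linked to ribosomes or to ribosomal or transfer RNA, were also lower with Act5C-GAL4. No list of such genes was compared, so these 3 say nothing of the class. Nop60B, the rRNA pseudouridine synthase gene, read 8.71, 9.18 and 9.10 against 10.22, 10.20 and 9.78 at one probe set (log2 -1.07, SE 0.18, adjusted p = 0.00963). The brighter Nop60B probe set read 11.15, 11.72 and 11.27 against 11.77, 11.75 and 11.08, a difference of -0.15 (adjusted p = 0.999), so the 2 probe sets disagreed. Rbm13, known from ribosome assembly, read 7.16, 7.18 and 7.58 against 8.60, 8.01 and 8.31 (log2 -1.0, SE 0.17, adjusted p = 0.0109). Dus2, a tRNA dihydrouridine synthase gene, read 7.07, 7.31 and 7.30 against 8.34, 7.86 and 7.91 (log2 -0.81, SE 0.15, adjusted p = 0.0272). In all 3 genes the first diet batch had the largest difference. The calls were lost without Act5C-GAL4 replicate 1, arm-GAL4 replicate 1 or arm-GAL4 replicate 2 for Nop60B (adjusted p from 0.076 to 0.107), without Act5C-GAL4 replicate 1 or 2 or arm-GAL4 replicate 1 for Rbm13 (from 0.0544 to 0.114), and for Dus2 without any array except Act5C-GAL4 replicate 2 (from 0.0513 to 0.235). The 41 cytosolic ribosomal protein genes had a median of -0.04 and 0 were called.

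Marc and CG31810 complete the 12 largest falls. Marc read 6.70, 6.78 and 6.77 against 7.90, 7.62 and 7.76 (log2 -1.01, SE 0.12, adjusted p = 0.000131), with an SD of 0.05 in the Act5C-GAL4 group. CG31810 read 5.21, 5.27 and 5.13 against 6.29, 6.25 and 6.70 (log2 -1.21, SE 0.24, adjusted p = 0.0422), and lost its call without any 1 of the 6 arrays (adjusted p from 0.0838 to 0.209), after quantile normalization over all arrays (0.0516) and with 1 probe set per gene (0.0501). A second probe set, 1630244_s_at, which the annotation lists for CG31810 together with CG31809, was lower by 1.36 (SE 0.23, adjusted p = 0.0109), and it lost its call without replicate 2 or 3 of either group (from 0.0504 to 0.0885). The unnamed 1633998_s_at was lower by 1.43 (SE 0.26, adjusted p = 0.0179), with the call lost without Act5C-GAL4 replicate 2 or 3 or arm-GAL4 replicate 3 (from 0.0544 to 0.183). Sry-alpha, known from cellularization of the early embryo, and CG14113 were named after their values were seen, with differences of -0.59 (adjusted p = 0.0296) and -0.69 (adjusted p = 0.047).

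The genes that differed lay on all 4 large autosomal arms and the X. Of genes with an arm in the Release 6 gene table, 7 of 1873 measured on the X were called (0.374%), 10 of 2427 on 2R (0.412%), 4 of 2205 on 2L (0.181%), 3 of 2344 on 3L (0.128%), 4 of 2974 on 3R (0.134%) and 0 of 65 on chromosome 4. Directions were mixed on each arm, with 4 higher and 6 lower on 2R and 4 higher and 3 lower on the X. Among 55 measured nearest neighbours of the 28 genes, 2 were themselves called, and these were Ser6 and CG1304, which neighbour each other. The platform annotation names no assembly, so no coordinates are given. Of the 28 genes, lola, mthl8, Nop60B, Ptp10D, TBPH and kek5 had more than 1 probe set, and in these 6 no second probe set was called.

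The same pair of driver lines was measured in males, in 6 further arrays that share none with the female comparison. There 196 probe sets were called, 1.04% of those tested, 95 higher (0.506%) and 101 lower (0.538%). Of the 19 that were higher in females, 19 were also higher in males and 11 (57.9%) were called. Of the 19 that were lower in females, 16 were lower in males and 7 (36.8%) were called, and none of the 38 was called in the opposite direction. The 18 shared calls were 47.4% of the female calls and 9.18% of the male calls. Leaving out 1 male array moved the male count to between 86 and 195, with counts of 86 to 117 without arm-GAL4 male replicate 1 or 3 or any of the 3 Act5C-GAL4 male arrays. The male spread comes from the same fit as the female one, so the 2 sets of calls share an estimate of error.

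CG1304, Ser6 and Cyp4p2 differed in both sexes. CG1304 read 8.08, 8.32 and 7.76 in Act5C-GAL4 males and 4.12, 4.0 and 3.99 in arm-GAL4 males (log2 4.02, SE 0.25, adjusted p = 6.39e-09). Ser6 differed by more in males than in females, 2.74 against 1.29, but the difference between the sexes did not pass the test (-1.45, SE 0.35, adjusted p = 0.212). Cyp4p2 read 5.21, 4.81 and 5.39 against 7.02, 7.41 and 6.96 in males, a difference of -1.99 that is 0.09 from the female one. Eip63E (-1.09), mthl8 (1.19), Cyp6a23 (-1.19) and Marc (-0.80) were also called in males in the female direction. Of the 38, 23 had a male difference of the female sign that was no smaller than 50% of the female one.

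Other genes had smaller differences in males that did not pass the test. Drep1 was at 5.16, 4.93 and 4.88 in Act5C-GAL4 males against a group mean of 4.96 in arm-GAL4 males, a difference of 0.03 (adjusted p = 0.983). CG33474 (0.08), jtb (0.14), CG42857 (-0.33) and Lime (-0.57) were not called in males either, and Lime was dim there, at 3.85 to 4.71 over both groups. These contrasts between the sexes did not themselves pass the test, with adjusted p of 0.0851 for jtb, 0.0853 for CG42857, 0.127 for Drep1, 0.152 for CG33474 and 0.237 for Lime, so none of them is shown to be confined to females. The driver difference itself differed between the sexes in 17 probe sets, 0.0906% of those tested, 13 higher (0.0693%) and 4 lower (0.0213%), with 8 to 17 when 1 of the 12 control arrays was left out. It was 8 to 11 without female Act5C-GAL4 replicate 1 or 3, female arm-GAL4 replicate 3, male Act5C-GAL4 replicate 1 or 2, or male arm-GAL4 replicate 1 or 3. Only Ptp10D was among both the 17 and the 38.

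Ptp10D, a receptor tyrosine phosphatase gene known from axon guidance, was lower with Act5C-GAL4 in both sexes, and by more in males, at one of its 2 probe sets. In females it read 6.15, 6.41 and 5.84 with Act5C-GAL4 and 6.94, 7.19 and 6.67 with arm-GAL4 (log2 -0.80, SE 0.16, adjusted p = 0.0369). In males it read 3.44, 3.39 and 2.96 against 5.33, 5.63 and 5.77 (log2 -2.31, adjusted p = 2.35e-08). The female minus male contrast was 1.51 (SE 0.22, adjusted p = 0.00581), and the Act5C-GAL4 males were below the lowest lower quartile. The second Ptp10D probe set had the opposite sign in both sexes. In females it read 7.10, 7.33 and 7.26 against 6.31, 7.05 and 6.83, a difference of 0.50 that did not pass the test (adjusted p = 0.509), and in males it read 6.71, 7.15 and 7.24 against 6.54, 6.04 and 6.38, a difference of 0.71 that did (adjusted p = 0.0306). The direction for Ptp10D therefore holds for the first probe set alone. The female call was lost without Act5C-GAL4 replicate 1 or 3 or arm-GAL4 replicate 1 or 2 (adjusted p from 0.116 to 0.332), with the batch block set within each sex (0.057), on the 12 female arrays alone (0.306) or the 6 compared arrays alone (0.167), and after quantile normalization over all arrays (0.0573).

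**Figure D2:**
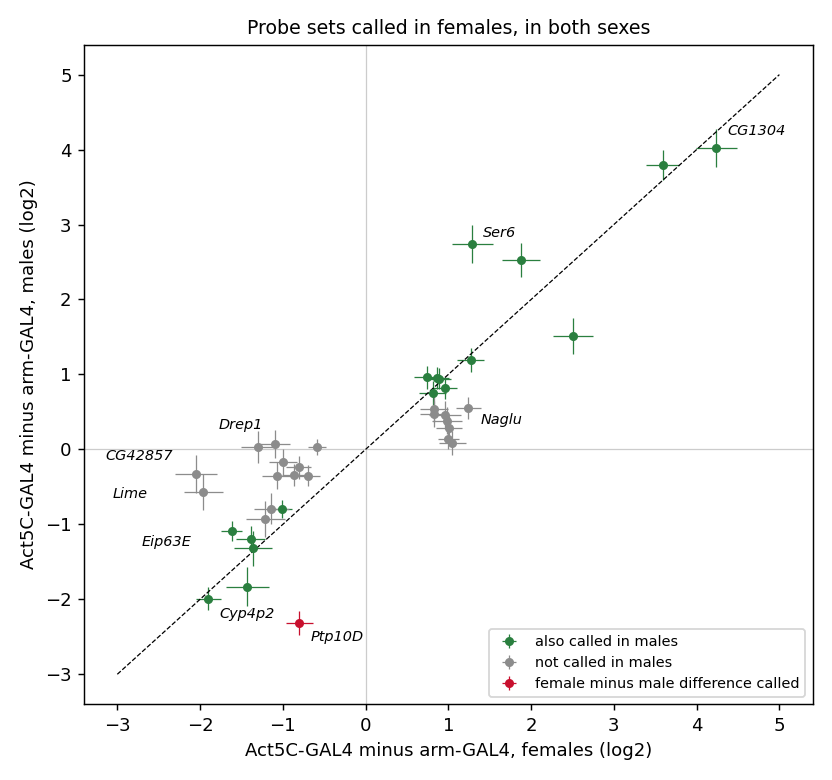
Log2 difference between the Act5C-GAL4 and arm-GAL4 controls in females (horizontal) and in males (vertical) for the 38 probe sets that passed the test in females, with standard errors as bars and equality as the dashed line. Of the 38, 35 have the same sign in both sexes and 18 passed the test in males in the same direction (Ptp10D among them, drawn in red for its female minus male contrast), while in males Drep1 is at 0.03, CG42857 at -0.33 and Lime at -0.57.

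The same drivers were also measured in 6 more female arrays that carry Hr96 transgenes. Hr96 itself read 9.47, 9.33 and 8.66 in over-expression females and 7.91, 8.15 and 7.88 in females labelled knockdown, whose values are not below the arm-GAL4 control, so the label is kept in the name. Between these 2 groups 4657 probe sets were called, 24.8% of those tested, 2046 higher (10.9%) and 2611 lower (13.9%). The count ran from 1471 to 5531 with 1 array left out, at 1471 without over-expression replicate 2, 2226 without labelled knockdown replicate 2 and 2992 without labelled knockdown replicate 1. Of the 19 driver rises, 16 were called in the same direction here (84.2%), and of the 19 falls, 10 were (52.6%). None of the 38 was called in the opposite direction. These groups differ in the Hr96 transgenes as well as in the driver.

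In 21 of the 38 probe sets each transgenic group was nearer to the control with its own driver. This describes group means and carries no test, since the 2 controls chose the 38. The same count over all probe sets is not given here. mthl8 read 6.61, 6.84 and 6.52 in over-expression females and 5.48, 5.10 and 5.35 in labelled knockdown females, close to the Act5C-GAL4 and arm-GAL4 controls respectively. Lime read 7.79, 6.82 and 7.78 against 9.39, 9.50 and 9.23, with the same split by driver. Naglu, jtb, Marc and Nop60B were of this kind too. The brighter Nop60B probe set differed by -0.87 (adjusted p = 0.00869) between over-expression and labelled knockdown females, against -0.15 between the controls.

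In 10 probe sets both transgenic groups were nearer in their means to the Act5C-GAL4 control. CG1304 read 6.93, 6.33 and 7.78 in labelled knockdown females, against 3.78 to 3.93 in the arm-GAL4 control with the same driver. Ser6 read 8.26, 7.46 and 8.54 there, and 1640377_s_at read 9.01, 8.23 and 8.86. In these 3, as in kek5 and Ptp10D, no array of the other female genotypes overlapped the arm-GAL4 control. CG42857 was also nearer, but its labelled knockdown arrays (4.43, 4.89 and 5.53) lay between the 2 controls. For Sry-alpha (5.46, 5.43 and 5.78) and CG14113 (4.83, 5.32 and 4.54) the labelled knockdown arrays overlapped the arm-GAL4 control. In the other 7 both transgenic means were nearer to the arm-GAL4 control. Cyp4p2 read 7.27, 7.58 and 7.35 in over-expression females and Eip63E read 8.61, 8.5 and 8.48, at the level of the arm-GAL4 control and well above the Act5C-GAL4 control that shares their driver. lola, Rbm13, CG31810 and Drep1 were in this group with 1630244_s_at, although an over-expression array of Rbm13 (7.57) overlapped the Act5C-GAL4 control. In none of the 38 were both transgenic groups nearer to the control of the opposite driver.

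**Figure D3:**
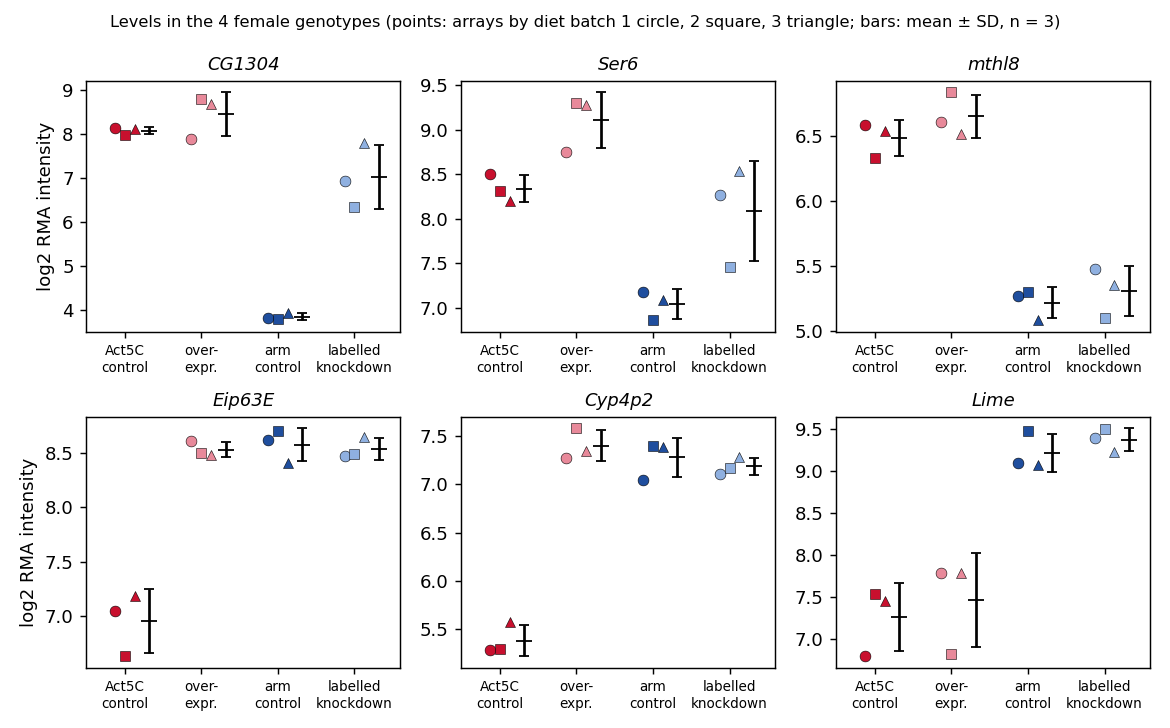
Log2 RMA intensity of 6 genes in the 4 female genotypes, 1 point per array with the mean and SD (n = 3) beside it. mthl8 and Lime split by driver, CG1304 and Ser6 are lowest in the arm-GAL4 control, and Eip63E and Cyp4p2 are low in the Act5C-GAL4 control alone.

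Lists of genes by tissue or function held few calls. Of 26 lists, 3 held a called gene: digestive enzymes (Ser6, 1 higher of 42 genes, median 0.11), cytochrome P450s and UDP-glycosyltransferases, described above, and the rest had 0 called in either direction. Across all 11982 genes, with 1 probe set for each, 24 were called (0.2%) and the median difference was -0.01. Immune peptides and effectors (25 genes, median 0.15), larval serum and fat body proteins (10, 0.16) and heat shock proteins (16, 0) had medians near 0. So did glutathione S-transferases (36, -0.04), and lipid synthesis, storage and oxidation genes (27, 0.01). The same held for sterol transport and lipase genes (35, -0.10), nuclear receptors (20, -0.01) and ovary germline genes (26, -0.05). It also held for odorant-binding proteins (48, -0.08), cuticle proteins (103, 0.03) and cuticle tanning enzymes (12, 0.09). Among the lists from immune peptides to cuticle tanning enzymes, 0% to 16.7% of members had an unadjusted p under 0.05. The share over all genes was 4.98%. It was 16.7% in glutathione S-transferases (4 higher, 2 lower) and 16% in immune genes (4 higher, 0 lower). It was 14.6% in odorant-binding proteins (2 higher, 5 lower), 3.7% in lipid genes and 0% in cuticle tanning enzymes. Eye pigment genes (19, -0.03), the armadillo and Wnt pathway (6, -0.03), photoreceptor genes (16, 0), neuron genes (17, 0.12), circadian clock genes (10, 0.12), RNA interference genes (8, -0.08), testis markers (22, 0.02) and male accessory gland markers (15, -0.25) held no call either.

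**Figure D4:**
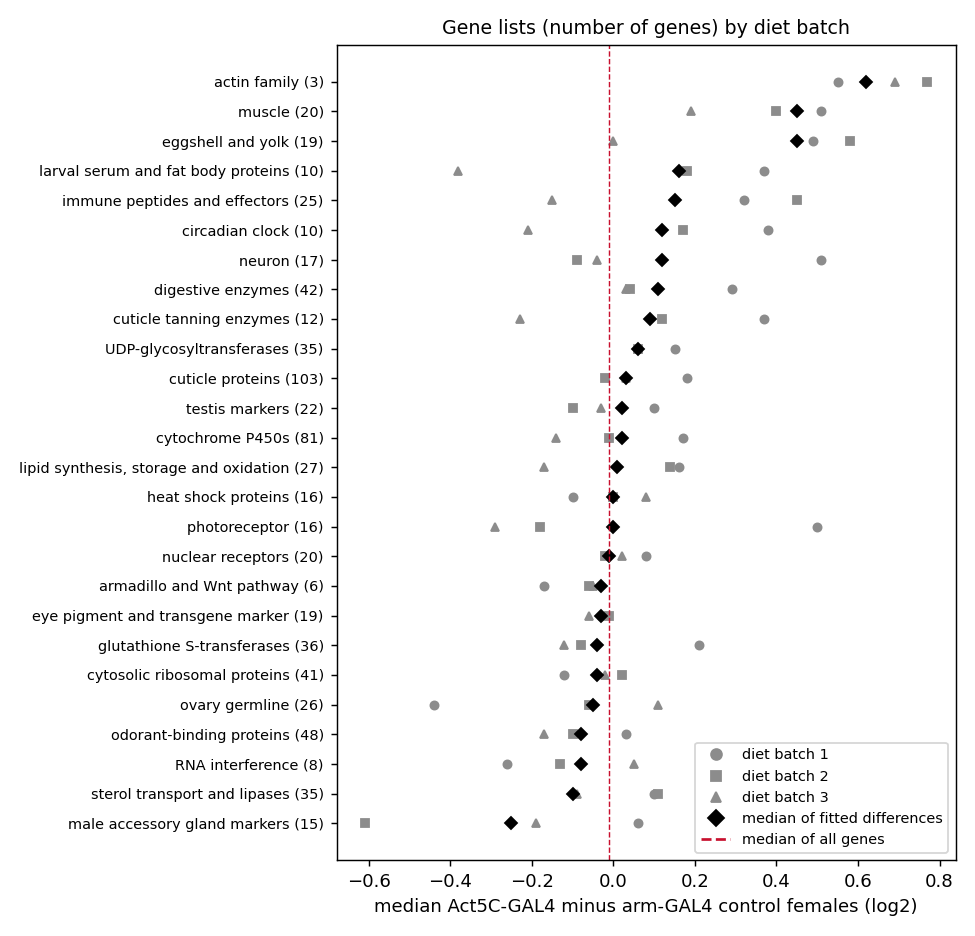
Median log2 difference, Act5C-GAL4 minus arm-GAL4 control females, of 26 gene lists (black diamonds; number of genes in brackets), with the median in each of the 3 diet batches (grey symbols) and the median of all genes (dashed). The actin family, muscle and eggshell lists have the largest medians, at 0.62, 0.45 and 0.45, and the eggshell list is at 0 in the third batch.

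Muscle genes, which encode the proteins of the contractile apparatus, had higher means with Act5C-GAL4 in nearly every member without any that passed the test. Of 20 genes, 19 had higher means with Act5C-GAL4 and 11 had an unadjusted p under 0.05, all 11 higher. Over all probe sets 4.73% had such a p, 2.62% higher and 2.1% lower. Over all 11982 genes, 5752 had higher means with Act5C-GAL4. None of the 20 muscle genes passed the adjusted test, and their lowest adjusted p was 0.19. The median difference was 0.45, with 0.51, 0.40 and 0.19 in the 3 diet batches, and 0.29 in males. Leaving out 1 array moved the median to between 0.32 and 0.54.

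up, the troponin T gene, read 10.62, 10.06 and 10.35 with Act5C-GAL4 and 9.77, 9.58 and 9.95 with arm-GAL4 (log2 0.58, SE 0.15, adjusted p = 0.19). It was 1 of 2 muscle genes, of 20, whose groups did not overlap. The other was sls, the gene of the giant protein Sallimus (log2 0.48, adjusted p = 0.551). Over all 11982 genes, groups did not overlap in 797, so this count alone does not set muscle genes apart. Act88F, the actin of the indirect flight muscle, had the largest difference, reading 12.51, 11.49 and 11.84 against 11.52, 10.31 and 11.11 (log2 0.96, SE 0.33, adjusted p = 0.652). Its 2 groups overlapped across batches although each batch pair differed in the same direction. fln, the flightin gene of flight muscle, differed by 0.81 (adjusted p = 0.999), while Mf, Mlp60A and Zasp66 differed by -0.01, 0.01 and 0.02. The actin family list holds Act88F, Act79B and Act87E, which are muscle genes as well, and its median was 0.62. Summed over the muscle list, intensity was 73806, 43154 and 50292 with Act5C-GAL4 and 52528, 33322 and 42394 with arm-GAL4. The first batch was highest in both groups and the sums of the groups overlapped. Whether this difference in muscle transcripts has a part in the called differences was not tested.

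**Figure D5:**
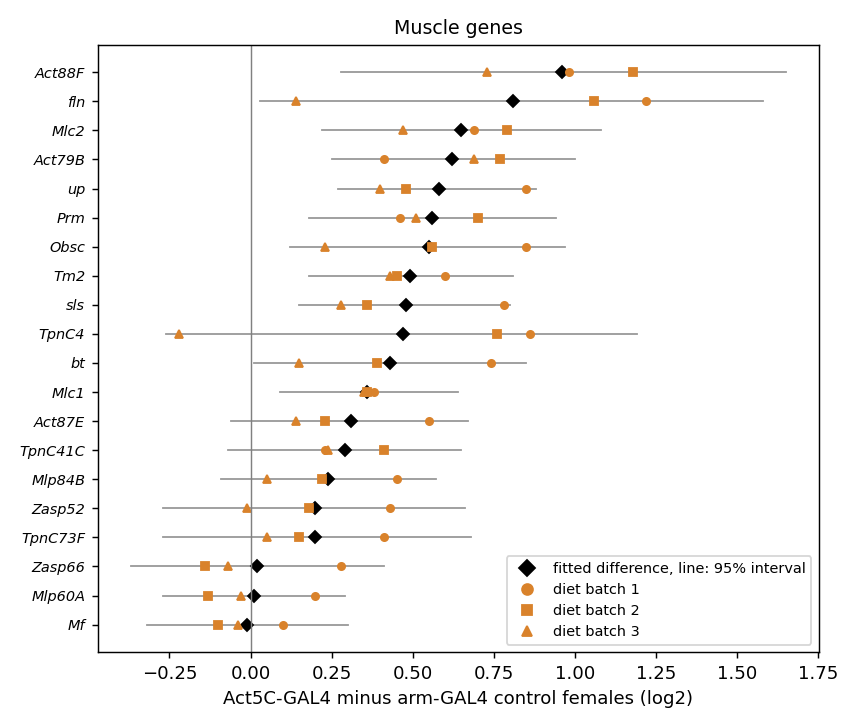
Log2 difference between Act5C-GAL4 and arm-GAL4 control females for 20 muscle genes, with the fitted difference (diamond), its 95% interval (line) and the difference in each diet batch (orange symbols). All but Mf lie above 0, 11 intervals exclude 0 before any adjustment, and none passed the adjusted test.

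Eggshell and yolk genes, which are expressed in ovarian follicle cells and fat body of egg-laying females, varied widely between arrays of 1 driver. Of 19 genes, 16 had higher means with Act5C-GAL4, 1 had an unadjusted p under 0.05, 0 were called and 0 had groups that did not overlap. Over all 11982 genes, 5752 had higher means, 4.98% had such a p and 797 had groups that did not overlap. The median difference of the eggshell and yolk genes was 0.45, with 0.49, 0.58 and 0 in the 3 batches. It fell to 0.16 without arm-GAL4 replicate 2, to 0.24 without Act5C-GAL4 replicate 1 and to 0.30 without arm-GAL4 replicate 1. The chorion gene Cp36 read 13.23, 12.55 and 12.89 against 12.74, 11.35 and 12.98 (log2 0.53, SE 0.56). The vitelline membrane gene Vm34Ca read 12.24, 10.16 and 11.33 against 10.18, 9.0 and 12.55 (log2 0.67, SE 0.84). The arm-GAL4 array of the third batch was high and that of the second low for both genes. Summed intensity of the list was 92249, 57233 and 94323 with Act5C-GAL4 and 73134, 36240 and 94302 with arm-GAL4.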

How the data were processed

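The values deposited by the authors are array intensities on a linear scale, 1 per probe set and array, made with RMA per the submitters' processing notes; no source used here gives its version. RMA corrects background and normalizes arrays to each other, and it compresses large differences. The log2 of the deposited intensities was taken with no pseudocount, and 183 control probe sets were left out, which leaves 18769. Of these, 13647 name 1 gene in the platform annotation, 402 several and 4720 none here; 13544 were matched to the Release 6 gene table for chromosome arms.

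limma 3.58.1 (R 4.3.3; lmFit and eBayes) was fitted to all 24 arrays with 8 group means and diet batch as a block, with 14 residual and 5.69 prior degrees of freedom. Two-sided p-values were adjusted by Benjamini-Hochberg over the 18769, and 0.05 was the threshold. The labels tie the replicate number to a batch of diet, which pairs the arrays; deviations of same-numbered arrays from their group means correlated at 0.04, 0.59 and 0.27. No 2 arrays shared more than 23 equal values. The number of arrays limits the precision, and the steps were tested on simulated data.

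The members and lists were chosen with earlier results of these data known. Genes were named by rule: checks, the 12 largest rises and 12 largest falls with 1 sign in 3 batch pairs, up to 4 called members of a list, the 5 largest sex contrasts, and by ID the 2 largest unnamed rises and falls. Lists used 1 probe set per gene, the one with the highest mean. Alternatives were no block, a block within sex, fewer arrays, a minimum mean of 5, a median shift, quantile normalization, trend and robust eBayes, array weights, 1 probe set per gene, a minimum of 2-fold, and each array left out. Plots used Python 3.11.15 with pandas 2.3.3 and matplotlib 3.10.9.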

Additional observations from a re-analysis of the deposited data

Results flagged for a closer look

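The difference between the driver lines itself differed between females and males in 17 probe sets (0.0906% of those tested), by the female minus male contrast in limma. They named 14 genes, and the 5 with the largest contrasts follow. CG32687 had a contrast of -2.74 (SE 0.32, adjusted p = 0.000639): the Act5C-GAL4 minus arm-GAL4 difference was 0.95 in females, where it did not pass the test (adjusted p = 0.132), and 3.69 in males. Its arm-GAL4 males read 5.38, 5.99 and 6.34 and the other 3 control groups 8.37 to 9.74. Sdic3, of the sperm dynein intermediate chain genes, had a contrast of 2.41 (adjusted p = 0.00291), with -0.15 in females and -2.56 in males; the Sdic genes are near-identical copies, so the copy read is uncertain. CG31244 had a contrast of 2.08 (adjusted p = 0.00581), with -0.08 in females and -2.16 in males. CG42272 had a contrast of 1.75 (adjusted p = 0.000639), with 0.39 in females and -1.35 in males. The female values of Sdic3, CG31244 and CG42272 did not pass the test. These genes were dim in females, set against a lowest lower quartile of 4.35 over all 24 arrays. Act5C-GAL4 and arm-GAL4 females averaged 5.21 and 5.36 for Sdic3, 4.60 and 4.68 for CG31244, and 5.17 and 4.78 for CG42272. The arm-GAL4 males averaged 8.78, 8.86 and 6.32 for these genes. Whether the low female level left room for a driver difference was not tested. Ptp10D had a contrast of 1.51 (adjusted p = 0.00581), with the same direction in both sexes as described above.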

How the results depend on the processing

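The female count of 38 probe sets (19 higher, 19 lower) became 32 (14 and 18, with 31 shared) without the replicate block, 22 on the 12 female arrays alone, 12 on the 6 compared arrays with the block and 11 without it, 83 (43 and 40) with array weights, 23 at 2-fold or more and 21 with 1 probe set per gene. It ran from 20 to 35 with 1 array left out, with 20 without Act5C-GAL4 replicate 3 and 25 without Act5C-GAL4 replicate 2. Fewer arrays leave fewer degrees of freedom, and the cause of the rise with array weights was not tested. Without the replicate block the male count was 137, the sex contrast count 16 and the count between transgenic females 4202; the male count ran from 86 to 195, the sex contrast from 8 to 17 and the transgenic count from 1471 to 5531 with 1 array left out. A median shift took the sex contrast to 11, and the transgenic split from 2046 higher and 2611 lower to 1666 and 3540. No called difference changed sign; those of Hr96 (-0.26 to 0.09), Acp26Aa (-0.26 to 0.02), CG31244 (-0.21 to 0.04) and Mst84Da (-0.08 to 0.26), which were not called, crossed 0. Of 693 repeats of gene differences, 568 kept their side of the threshold, 124 lost and 1 gained it; 16 of 29 called values held without each array in turn and 13 were lost without at least 1. Of 416 repeats of list medians, 404 moved by less than the spread and 12 by more.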
